A study of Mus musculus with 2 samples.

Results

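Genes of peripheral nerve were examined in the vaginal wall of *Fbln5-/-* and WT mice. The list held 34 genes of Schwann cells, neurons and neurotrophin signaling, and its members were the genes that had a probe set annotated to that gene alone. This was the case for 32 of the 34, of 18193 genes named on the array in all, with 77 probe sets. *Prx* and *Calca* had no such probe set in the annotation used and were not analysed here. RNA came from vagina of female C57/Bl6 mice, either *Fbln5-/-* or wild type, and 1 Affymetrix mouse expression array was analysed per genotype. Both groups were 6 months old according to the labels, had been ovariectomized, and had received estradiol at 50 µg/kg/d for 3 d, so no group without estradiol stands beside them. The labels place ovariectomy at 11 d, the series description at 2 weeks, and the methods start estradiol 2 weeks after ovariectomy. The methods name 2 animals in each group without saying whether RNA was pooled. With 1 array per genotype no difference has a replicate check, and neither a p-value nor an error between animals can be given.

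The vaginal wall is supplied by sympathetic, parasympathetic and sensory fibers. Their cell bodies lie in ganglia outside the wall, or in small ganglia beside it, so that RNA of whole vagina contains the transcripts of Schwann cells, which ensheathe the fibers, and only those neuronal transcripts that reach the axon or belong to local neurons. Neurotrophins and the GDNF family are secreted by target tissue and neighboring cells and act through receptors on the nerve. Several genes of the list are also active outside nerve: *Pmp22* in fibroblasts and epithelia, *Ncam1* in muscle, *S100b* in fat. In whole tissue, a larger number of cells of 1 type cannot be told apart from more RNA per cell.

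The deposited signals were scaled to a common median, and a signal of 100 was taken as the limit below which no level was read. At this limit 55.6% of probe sets on the *Fbln5-/-* array and 55.2% on the WT array had no readable level. Where 1 array was under 100, the fold is a bound against 100. *Fbln5* itself had signals of 30.4 on the *Fbln5-/-* array and 410.4 on the WT array (at least 4.10-fold lower). Its second probe set lay below 100 on both arrays (45.7 and 36.5). A control along *Gapdh* measured how far the labeled RNA reached toward the 5′ end of a transcript: the signals were 13829 on the *Fbln5-/-* array and 13329 on the WT array at the 3′ end, and 794.7 and 17262 at the 5′ end (21.7-fold lower). The same control for *Actb* was 3.66-fold lower at the 5′ end. In the middle of the transcript, *Gapdh* was 2.23-fold lower on the *Fbln5-/-* array (7058 and 15720) and *Actb* 2.33-fold lower (4090 and 9536). The position of the probe sets along their transcripts was not analysed here, and the part of this loss in the lower signals given below was not tested.

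Of the 32 members, 25 reached a signal of 100 on 1 or both arrays and 7 were under 100 on both. Ratios are given as *Fbln5-/-* over WT, the inverse of the direction in the study's methods. Among the 25, 4 were higher by 2-fold or more on the *Fbln5-/-* array and 4 were lower by as much, while over all 11934 genes measured the shares were 7.21% and 4.77%. When the median ratio was set to 1 over the probe sets that both arrays read at 100 or more, the genes over the whole array split into 676 higher and 706 lower instead of 861 and 569. A member that passed the limit on 1 array only could differ in 1 direction only, which applied to 4 of the 25. Among the 21 members at 100 or more on both arrays, 2 were at least 2-fold higher (*Scn7a* and *Vip*) and 3 at least 2-fold lower (*Ngfr*, *Gap43* and *Gfra1*), and over all 10976 such genes the shares were 5.26% and 3.59%. Their median log2 ratio of *Fbln5-/-* over WT was 0.12, and that of all such genes 0.15. The median of the 21 members thus lay close to that of the array, with single genes at both ends.

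**Figure D1:**
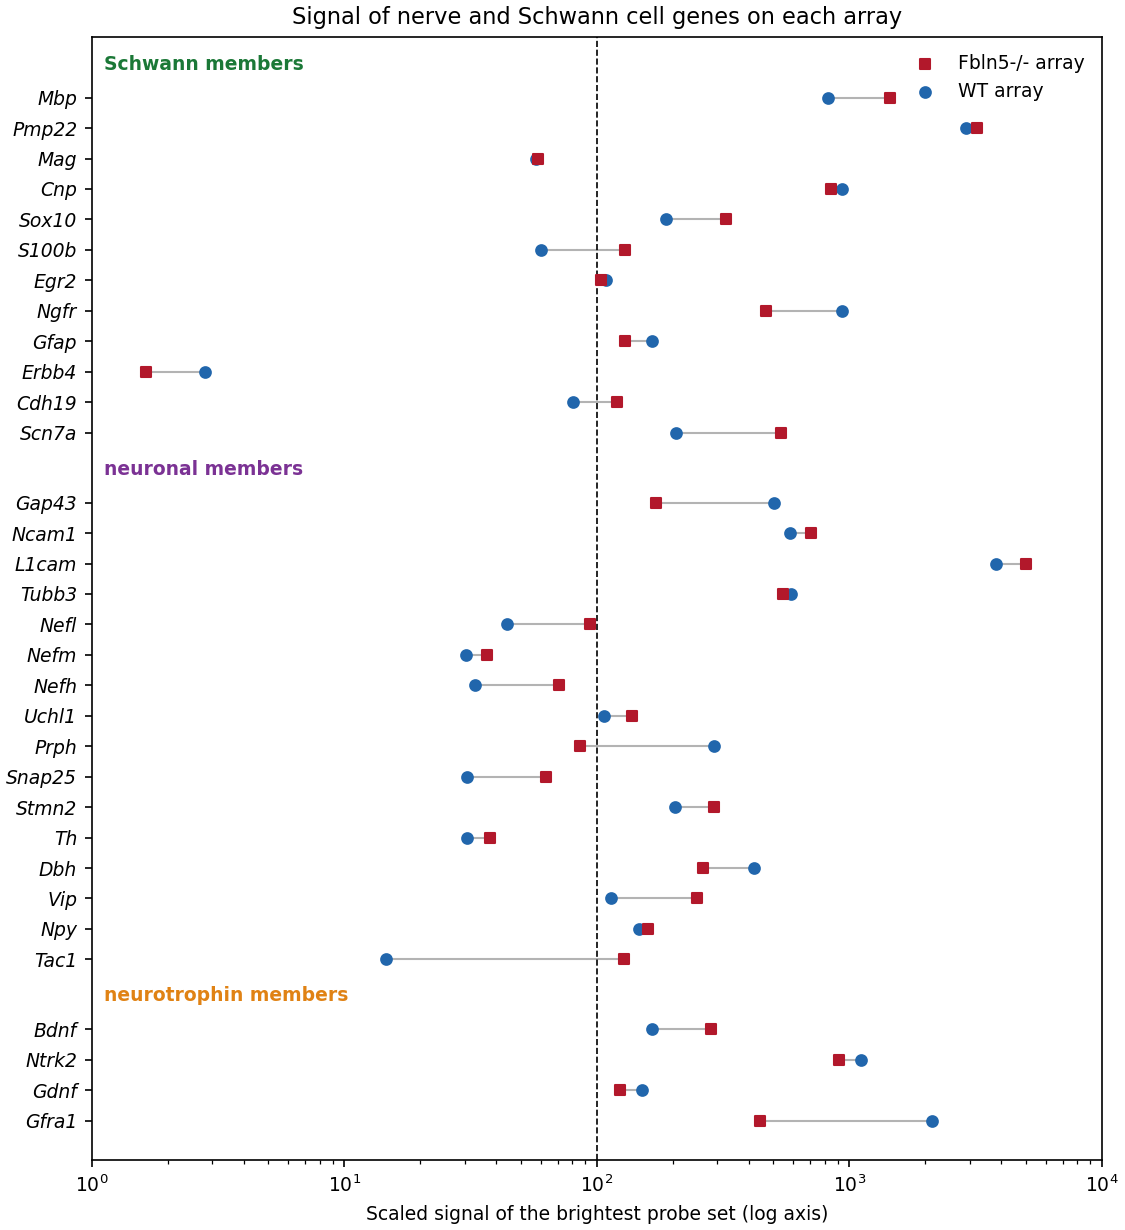
Scaled signal (log axis) of the brightest probe set of each member, on the *Fbln5-/-* array (squares) and the WT array (circles), 1 array each, with a dashed line at the limit of 100. *Scn7a* (537 and 205.0) and *Vip* (248 and 113) lie higher on the *Fbln5-/-* array, *Gap43* (172 and 502) and *Gfra1* (444 and 2121) lie lower, and the neurofilament genes lie left of the limit on both.

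Schwann cell genes were readable in part. *Scn7a*, the channel gene, and the Schwann cell genes *Mbp* and *Sox10* had higher signals on the *Fbln5-/-* array at each of their probe sets above the limit, whereas *Ngfr* and *Cnp* had lower ones. Of the 12 Schwann members with a probe set, 10 passed the limit and 8 did so on both arrays. Of the 10, 2 were at least 2-fold higher (*Scn7a* and *S100b*) and 1 at least 2-fold lower (*Ngfr*). On a scale with 100 as the lowest signal, *Scn7a* alone was at least 2-fold higher and *Ngfr* alone at least 2-fold lower, beside shares of 5.8% and 3.95% over all genes. The median log2 ratio of the 10 was 0.36, against 0.16 for all genes measured. Of the 8 members at 100 or more on both arrays, 4 had a higher signal on the *Fbln5-/-* array, and the median was 0.04.

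*Sox10*, the transcription factor that specifies Schwann cells and other neural crest derivatives, had signals of 324 on the *Fbln5-/-* array and 188 on the WT array at its brightest probe set (1.72-fold higher). A second probe set had signals of 177 and 110.4 (1.60-fold higher), and the third was under 100 on both arrays (4.01 and 40.6). Both readable *Sox10* probe sets thus gave nearly the same ratio.

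*Mbp* encodes myelin basic protein, which compacts the myelin sheath. It was represented by 8 probe sets, of which 6 were at 100 or more on both arrays. Its brightest probe set had signals of 1452 on the *Fbln5-/-* array and 825 on the WT array (1.76-fold higher), and the next 1353 and 809.9 (1.67-fold higher). All 6 had a higher signal on the *Fbln5-/-* array, with log2 ratios from 0.26 to 0.82, and none reached a 2-fold difference. The other 2 were under 100 on both arrays, at 77.8 and 49.3 on the *Fbln5-/-* array and 59.3 and 81.5 on the WT array. *Mbp* is also made without myelin, since its locus gives rise to non-myelin transcripts in blood cells, and which transcripts the probe sets read was not analysed here.

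The other myelin members stayed within 2-fold at their brightest probe sets or could not be read. *Pmp22*, which encodes a membrane protein of compact peripheral myelin, had signals of 3211 on the *Fbln5-/-* array and 2893 on the WT array (log2 ratio 0.15, close to the median of all genes). *Cnp*, the cyclic nucleotide phosphodiesterase of non-compact myelin, had signals of 848 and 933 at its brightest probe set (1.10-fold lower). This probe set is of the _x_at type, whose probes can also bind other transcripts. Its other probe sets had signals of 130.1 and 234 (1.80-fold lower) and of 83.0 and 192 (at least 1.92-fold lower). *Mag*, the myelin-associated glycoprotein of the inner sheath, was under 100 on both arrays (58.3 and 57.3). *Egr2*, the transcription factor that drives myelin genes in Schwann cells, lay at the limit with signals of 104 and 109 (log2 ratio −0.07). Its second probe set lay below 100 on both arrays (74.5 and 64.0).

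*Scn7a* had the highest ratio among the members at 100 or more on both arrays. It encodes a sodium channel that responds to extracellular sodium and is known from non-myelinating Schwann cells and some neurons. Its brightest probe set had signals of 537 on the *Fbln5-/-* array and 205.0 on the WT array (2.62-fold higher, log2 ratio 1.39), and 2.11% of all genes at 100 or more on both arrays had a higher ratio. The second had signals of 305 and 92.9 (at least 3.05-fold higher), and the third was under 100 on both arrays (86.4 and 62.3). Both *Scn7a* probe sets that passed the limit had the higher signal on the *Fbln5-/-* array.

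Genes of immature or non-myelinating Schwann cells went both ways. *Ngfr* encodes the low-affinity receptor p75 shared by all neurotrophins and marks immature and denervated Schwann cells. It had signals of 466 on the *Fbln5-/-* array and 937 on the WT array (2.01-fold lower), and its other probe sets were under 100 on both arrays (4.22 and 2.26 on the *Fbln5-/-* array, 18.1 and 54.9 on the WT array). *Gfap*, the intermediate filament of non-myelinating Schwann cells, had signals of 129 and 166 (1.28-fold lower). *Cdh19*, a cadherin of Schwann cell precursors and their derivatives, had signals of 120.4 and 80.8 (at least 1.20-fold higher). *S100b*, a calcium-binding protein used as a Schwann cell marker, had signals of 129 and 60.1, a ratio over 2-fold as measured and at least 1.29-fold against the limit. Its second probe set lay below 100 on both arrays (71.0 and 37.0). *Erbb4*, a neuregulin receptor, was far under the limit on both arrays (1.65 and 2.82).

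*S100b* was read on the same array as markers of fat, in which it is also active. All 4 adipocyte markers that passed the limit were higher by 2-fold or more on the *Fbln5-/-* array. Over all genes measured the shares were 7.21% higher and 4.77% lower. Their summed signals were 7941 on the *Fbln5-/-* array and 2269 on the WT array, with *Fabp4* (5703 and 1980) the largest part. *Ucp1* passed the limit on the *Fbln5-/-* array only (696 and 9.63, at least 6.96-fold higher), and *Lep* and *Cidec* were under 100 on both. Skeletal muscle markers summed to 7119 and 4859 (1 of 7 at least 2-fold higher), and smooth muscle markers to 42233 and 39943 (0 of 8 in either direction). Of the stratified epithelium (7), fibroblast (6) and endothelium (6) markers past the limit, 0 differed by 2-fold or more in either direction. Of 5 leukocyte markers past the limit, 0 were at least 2-fold higher and 1 was at least 2-fold lower. The part of these cell types in the member signals was not tested. Markers of oligodendrocytes, the myelin-forming cells of the central nervous system, were under 100 on both arrays for 6 of 6 genes, as were 4 of 6 markers of melanocytes, which also express *Sox10*: the pigment genes *Tyr*, *Dct*, *Mlana* and *Tyrp1*. The other melanocyte markers were read on both arrays, with signals of 593 on the *Fbln5-/-* array and 319 on the WT array for *Mitf* (1.86-fold higher) and of 372 and 394 for *Kit* (1.06-fold lower). The markers past the limit summed to 965 and 712, and their part in the *Sox10* signals was not tested.

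**Figure D2:**
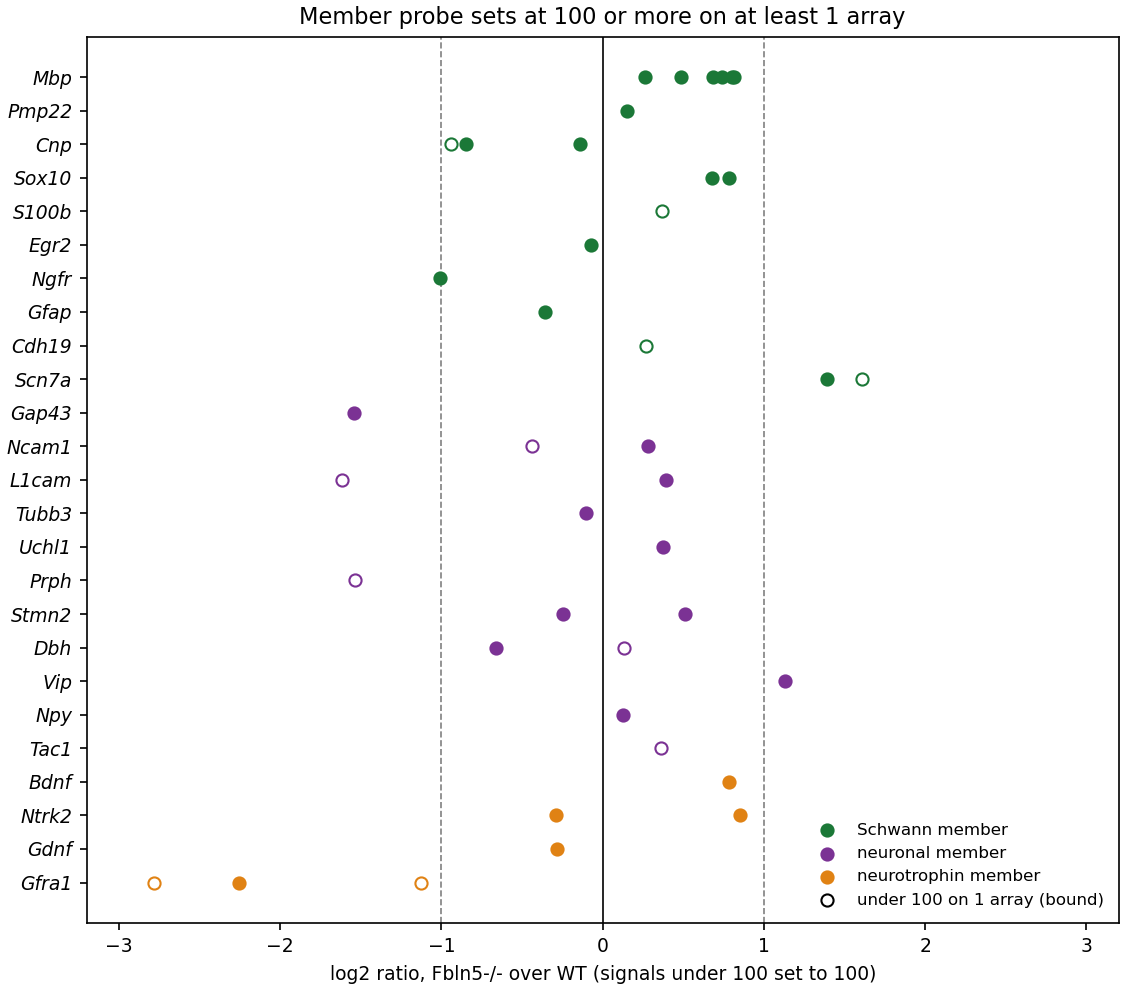
Each member probe set that reached 100 on 1 or both arrays, as the log2 ratio of *Fbln5-/-* over WT (1 array per genotype), with 100 as the lowest signal. Filled circles are values, open circles are bounds (1 array under 100), and the dashed lines show 2-fold. The 6 *Mbp* and 2 *Sox10* probe sets lie close together above 0, the 3 *Gfra1* probe sets all lie below −1, and *L1cam* and *Ntrk2* have probe sets on both sides of 0.

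Neuronal members were readable in part, among the structural proteins as well as the transmitter genes. Of the 16 neuronal members with a probe set, 11 passed the limit and 9 did so on both arrays. Of the 11, *Vip* and *Tac1* (2) were higher by 2-fold or more on the *Fbln5-/-* array and *Gap43* and *Prph* (2) were lower by as much. With 100 as the lowest signal these counts were 1 and 2. Over all genes measured the shares were 7.21% higher and 4.77% lower, and with 100 as the lowest signal 5.8% and 3.95%. The median log2 ratio of the 11 was 0.28, and it turned to −0.10 when the ratios of all probe sets of a gene were averaged (−0.080 with 100 as the lowest signal).

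The 3 neurofilament subunits, which form the axonal cytoskeleton, were under 100 on both arrays. *Nefl* had signals of 93.7 and 65.4 on the *Fbln5-/-* array and 44.1 and 52.0 on the WT array. *Nefm* had signals of 36.7 and 30.3, and *Nefh* of 70.5 and 33.1. *Snap25*, a protein of synaptic vesicle fusion, was also under the limit at both probe sets (62.9 and 6.27 on the *Fbln5-/-* array, 30.7 and 7.20 on the WT array). These axonal and synaptic markers were thus not detectable at this limit on either array, and their direction is not read.

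Growth-associated genes differed among themselves. *Gap43*, a membrane protein of growing axons that is also made by Schwann cells after nerve injury, had signals of 172 on the *Fbln5-/-* array and 502 on the WT array (2.91-fold lower, log2 ratio −1.54). It had 1 probe set, and 1.10% of all genes at 100 or more on both arrays had a lower ratio. *Stmn2*, a microtubule regulator of growing neurites, had signals of 290.3 and 204 at 1 probe set (1.42-fold higher) but 219 and 259.6 at the other (1.18-fold lower). *Tubb3*, the neuronal β-tubulin, had signals of 548 and 589 (1.08-fold lower). *Uchl1*, which encodes the ubiquitin hydrolase known as PGP9.5, had signals of 138 and 107 (1.30-fold higher). Of these 4 genes, *Gap43* alone reached a 2-fold difference.

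The peripheral intermediate filament *Prph* depended on 1 probe set. It had signals of 86.0 on the *Fbln5-/-* array and 290.3 on the WT array (at least 2.90-fold lower) at a probe set of the _x_at type, whose probes can also bind other transcripts. Its 3 other probe sets were under 100 on both arrays, and the brightest of them had signals of 74.6 and 64.3.

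The cell adhesion molecules of axons were read at probe sets that went opposite ways. *L1cam* had signals of 5002 on the *Fbln5-/-* array and 3806 on the WT array at its brightest probe set (1.31-fold higher) and of 17.0 and 307 at the other (at least 3.07-fold lower). *Ncam1*, which is also made by muscle, had signals of 707 and 583 (1.21-fold higher) at its brightest probe set but 90.7 and 136 at another (at least 1.36-fold lower), while its 5 remaining probe sets were under 100 on both arrays. Neither gene had 1 direction over its probe sets. Among the 10 members with at least 2 probe sets past the limit, 5 were split in this way. For comparison, the log2 ratios of different probe sets for the same gene had a pooled SD of 0.52 over 4114 genes.

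Among the transmitter members, the peptide *Vip* was the one with a 2-fold difference at 100 or more on both arrays. *Vip* encodes vasoactive intestinal peptide, a vasodilator and smooth muscle relaxant of parasympathetic fibers in the genital tract. It had signals of 248 on the *Fbln5-/-* array and 113 on the WT array (2.19-fold higher, log2 ratio 1.13, 1 probe set), and 3.79% of all genes at 100 or more on both arrays had a higher ratio. *Npy*, the co-transmitter of sympathetic fibers, had signals of 159.6 and 146.6 (1.09-fold higher). *Tac1*, the precursor of substance P in sensory fibers, had signals of 128 and 14.6 at 1 probe set, which is at least 1.28-fold higher against the limit, and was under 100 on both arrays at the other (31.0 and 33.5).

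The enzymes of noradrenaline synthesis gave no common direction. *Th*, the rate-limiting enzyme, was under 100 on both arrays (37.7 and 30.7). *Dbh*, which makes noradrenaline from dopamine, had signals of 264 on the *Fbln5-/-* array and 418 on the WT array (1.58-fold lower) at a probe set of the _x_at type. At a second probe set it had signals of 109.7 and 94.0 (at least 1.10-fold higher), and the third was under 100 on both arrays (12.3 and 12.5).

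All 4 neurotrophin members passed the limit on both arrays. Of these, 1 was lower by 2-fold or more on the *Fbln5-/-* array and 0 were higher by as much, beside shares of 4.77% and 7.21% over all genes measured. The median log2 ratio of the 4 was −0.29, against 0.16 for all genes measured. It was −0.0023 when the ratios of all probe sets of a gene were averaged. *Gfra1*, which encodes the GPI-anchored co-receptor that binds GDNF and presents it to the kinase *Ret*, had the lowest ratio of all members at 100 or more on both arrays. Its brightest probe set had signals of 444 on the *Fbln5-/-* array and 2121 on the WT array (4.78-fold lower, log2 ratio −2.26), and 0.264% of all genes at 100 or more on both arrays had a lower ratio. The second had signals of 3.29 and 688 (at least 6.88-fold lower), and the third 8.33 and 218 (at least 2.18-fold lower). All 3 *Gfra1* probe sets had the lower signal on the *Fbln5-/-* array, which was also the array with the lower 5′ control.

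The ligand *Gdnf*, a survival factor for autonomic and sensory neurons, had signals of 124 on the *Fbln5-/-* array and 151 on the WT array (1.22-fold lower). *Ret* had signals of 158 and 70.3 at its brightest probe set (at least 1.58-fold higher) and was under 100 on both arrays at the other (31.4 and 84.9). The ligand thus stayed within 2-fold. The kinase, for which only a bound can be given, had its higher signal on the *Fbln5-/-* array at its brightest probe set only. Of the other *Gfra* genes, *Gfra2* (270 and 175, 1.54-fold higher) and *Gfra3* (148 and 111, 1.34-fold higher) were higher at their brightest probe sets. *Gfra4* was under 100 on both arrays.

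*Bdnf*, the neurotrophin that acts on sensory and motor neurons, had signals of 284 on the *Fbln5-/-* array and 165 on the WT array (1.72-fold higher). Its second probe set lay below 100 on both arrays (95.2 and 66.4). *Ntrk2* encodes TrkB, the kinase receptor for *Bdnf*, which occurs with and without its kinase domain. It had signals of 907 and 1109 at 1 probe set (1.22-fold lower) and 917 and 508 at another (1.81-fold higher), and its 6 other probe sets were under 100 on both arrays. Which receptor form each *Ntrk2* probe set reads was not analysed here.

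The promoters of *Scn7a*, *Vip* and *Gfra1* are shown because these genes had the largest differences among the Schwann, neuronal and neurotrophin members with an entry, all at 100 or more on both arrays. The sequences are from RefSeq (GRCm38.p6), in which 22 of the 32 members matched by symbol. Each runs 5′ to 3′ on the strand of the gene, from 250 bases before the transcription start to 50 after it. Capitals mark 3 motifs searched on both strands: the letters GCGTGGGCG bound by EGR factors such as *Egr2*, the core TGACG of the cyclic AMP response element, and GGTCA, 1 arm of the estrogen response element.
*Scn7a*, chr2:66784861-66785160, minus strand: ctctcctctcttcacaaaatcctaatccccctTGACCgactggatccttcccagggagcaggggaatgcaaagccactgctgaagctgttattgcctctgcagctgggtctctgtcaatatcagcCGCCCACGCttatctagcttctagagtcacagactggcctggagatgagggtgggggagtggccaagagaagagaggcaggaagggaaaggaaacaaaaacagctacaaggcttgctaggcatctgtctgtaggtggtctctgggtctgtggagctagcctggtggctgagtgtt
*Vip*, chr10:5638968-5639267, plus strand: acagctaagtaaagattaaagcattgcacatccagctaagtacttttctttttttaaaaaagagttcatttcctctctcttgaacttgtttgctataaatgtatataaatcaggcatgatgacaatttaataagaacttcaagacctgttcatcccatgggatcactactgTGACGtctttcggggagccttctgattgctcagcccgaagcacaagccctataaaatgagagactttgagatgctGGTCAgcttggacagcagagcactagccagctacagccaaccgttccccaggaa
*Gfra1*, chr19:58455349-58455648, minus strand: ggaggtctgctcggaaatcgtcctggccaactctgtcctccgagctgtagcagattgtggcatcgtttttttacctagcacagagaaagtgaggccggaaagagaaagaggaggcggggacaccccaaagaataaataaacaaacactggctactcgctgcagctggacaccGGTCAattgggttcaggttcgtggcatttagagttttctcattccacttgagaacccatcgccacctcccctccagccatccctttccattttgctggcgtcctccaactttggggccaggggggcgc

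The *Scn7a* promoter held 1 EGR motif, on the reverse strand at base 126 of the 300, and such a motif was found in 0.612% of 32851 promoters. The *Vip* promoter held 1 TGACG core at base 172, as did 20.8% of all promoters in at least 1 copy. The letters GGTCA were found in all 3 sequences and in 40.5% of all promoters. These matches describe letters in a window of 300 bases and were not set against the signals.

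Other genes of peripheral nerve were read from lists arranged by role. Of 22 other Schwann cell genes with a probe set, 19 passed the limit, and of these 4 were higher by 2-fold or more on the *Fbln5-/-* array and 0 were lower by as much (3 and 0 with 100 as the lowest signal). The shares over all genes measured were 7.21% and 4.77%, and 5.8% and 3.95% with 100 as the lowest signal. *Ugt8a*, which makes the myelin lipid galactocerebroside, had signals of 481 and 121 (3.99-fold higher), while its second probe set lay below 100 on both arrays. *Sox2*, a transcription factor of immature Schwann cells that is also active in epithelial progenitors, had signals of 572 and 183 (3.13-fold higher). *Art3* had signals of 279 and 128 (2.18-fold higher). *Mal*, a membrane protein of myelin that is also made by epithelia, had signals of 14190 and 12564 at its brightest probe set (1.13-fold higher) and 3118 and 6116 at the other (1.96-fold lower). *Erbb3*, the neuregulin receptor of Schwann cells and also of epithelia, had signals of 4673 and 2584 (1.81-fold higher) and was named after its value was seen.

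Of 48 other neuronal genes with a probe set, 30 were under 100 on both arrays. Of the 18 that passed the limit, 5 were higher by 2-fold or more on the *Fbln5-/-* array and 1 was lower by as much (4 and 0 with 100 as the lowest signal), beside the same 7.21% and 4.77% (5.8% and 3.95%) over all genes. The peptide genes *Calcb* and *Penk* had the highest ratios of this list. Its peptide genes *Gal*, *Sst*, *Adcyap1*, *Tac2* and *Cartpt* were under 100 on both arrays. *Calcb*, which encodes the β form of calcitonin gene-related peptide of sensory fibers, had signals of 724 on the *Fbln5-/-* array and 158 on the WT array (4.57-fold higher, 1 probe set). *Penk*, the precursor of the enkephalins, had signals of 742 and 178 (4.16-fold higher, 1 probe set). *Dpysl3*, a regulator of neurite outgrowth that is also made outside nerve, had signals of 1696 and 487 at its brightest probe set (3.48-fold higher) and of 232 and 125 at the next (1.86-fold higher). *Cntn1*, an axonal adhesion molecule, had signals of 597 and 258 (2.31-fold higher). *Map2*, a microtubule-associated protein of dendrites, had signals of 2651 and 2017 (1.31-fold higher), and at its second probe set 141 and 167 (1.19-fold lower). *Calcb* and *Calca* are close relatives, and whether the *Calcb* probes also read *Calca* was not tested.

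**Figure D3:**
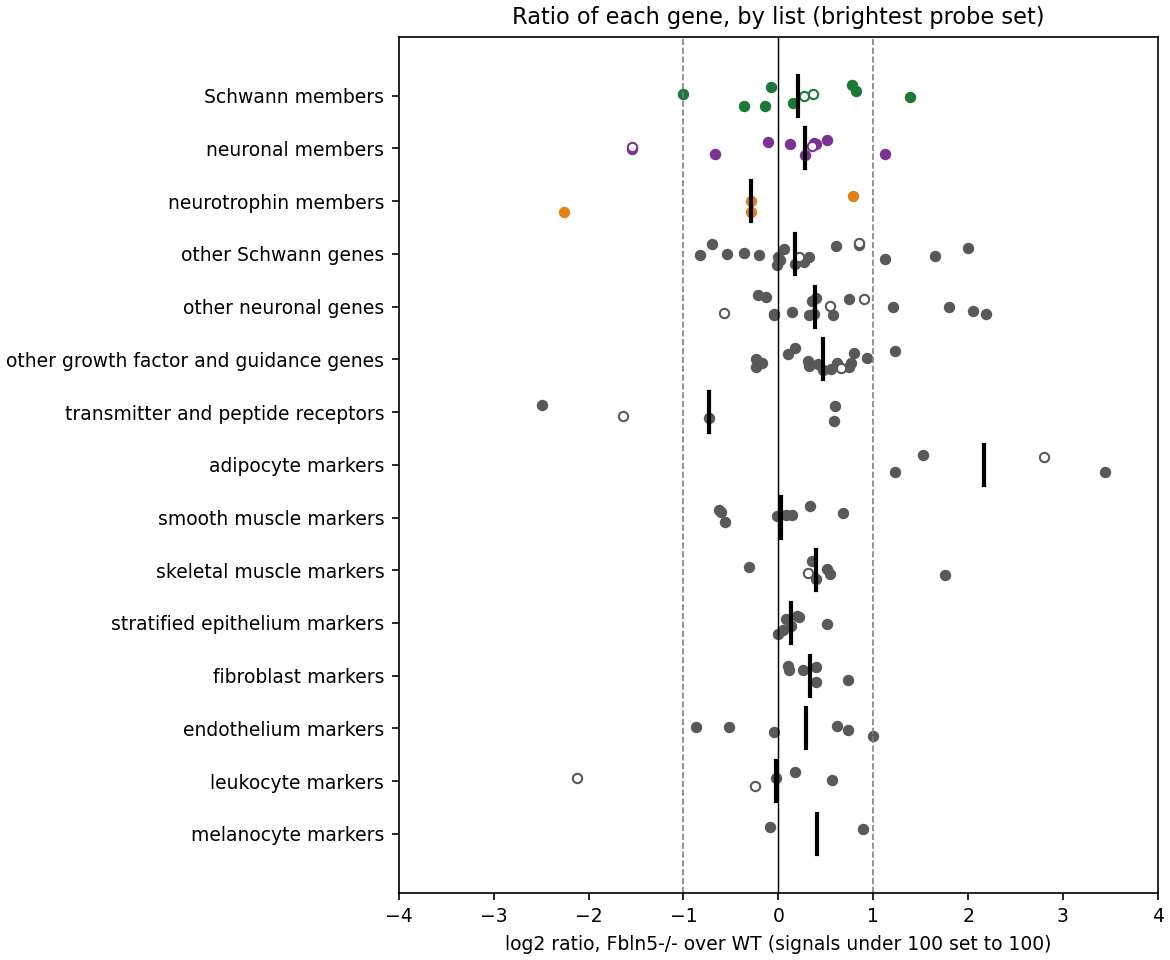
Each gene at its brightest probe set, by list, as the log2 ratio of *Fbln5-/-* over WT (1 array per genotype), with 100 as the lowest signal. Filled circles are values, open circles are bounds (1 array under 100), black bars give the median of each list, and the dashed lines show 2-fold. The members spread to both sides of 0 (medians 0.21, 0.28 and −0.29), and the 4 adipocyte markers past the limit lie above 0.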

How the data were processed

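Total RNA of vagina was hybridized to Affymetrix mouse expression arrays, 1 for *Fbln5-/-* and 1 for WT. The authors deposited signal intensities on a linear scale, for which the submitters' processing notes name MAS5 (its version is not given in the sources used here), with a trimmed mean (2% at each end) of 500.0 on both arrays. Here both arrays were brought to the same median (factors 1.03 and 0.972), after the 50th percentile normalization in the methods, and a single signal of 0 was set to 0.1. Probe sets that reached 100 on 1 or both arrays were kept, and 64 control probe sets were left out. Present and marginal calls were not used here. The platform annotation listed 34958 probe sets with 1 gene symbol, 932 with several and 9211 with none; 34754 matched the GRCm38.p6 gene table by identifier, and none was named from several. The brightest probe set stood for its gene, and differences of 2-fold or more were counted. Precision is limited by the number of arrays.

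The members, lists and motifs were chosen with earlier results of these data known. All members were named, and of each other nerve list up to 4 genes with the largest ratio of at least 2-fold (signals under 100 set to 100) and the brightest gene. Some other genes, *Ret* and the other *Gfra* genes among them, were named outside this rule. No test was made between 1 array and 1 array. The steps were tested on simulated arrays, which had less spread between probe sets of 1 gene than these arrays. Changes were planted only in genes well above the limit, so readings near 100 were not tested. Alternatives were 4 other scalings, 4 other filters, 100 as the lowest signal, adding 32 to both signals, counting from 3-fold, the mean over probe sets, leaving out _x_at, _s_at and _a_at probe sets, and, added after seeing the data, the mean over probe sets with 100 as the lowest signal. The work used matplotlib 3.10.9, scipy 1.17.1, pandas 2.3.3 and numpy 2.4.6 under Python 3.11.15.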

Additional observations from a re-analysis of the deposited data

How the results depend on the processing

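No member changed direction under the 4 other scalings. A median ratio of 1, set over the probe sets that both arrays read at 100 or more, lowered the median log2 ratio of all genes by 0.11 (shift −0.11) and left 1 Schwann member at least 2-fold higher. Of 282 values of single members under the 12 alternatives that give a ratio per gene, 274 stayed within 0.52 on the log2 scale of the reported value and 8 moved further. The neuronal median turned to −0.10 with the mean over probe sets, and the neurotrophin median was −0.0023. That mean takes signals under 100 as measured, which puts *Gfra1* at −4.89, *L1cam* at −1.89 and *Cnp* at −0.73. With signals under 100 set to 100 before averaging, an alternative chosen after seeing the data, *Gfra1* was at −2.05, *L1cam* at −0.61 and *Cnp* at −0.64. The neuronal median was then −0.080 and the neurotrophin median −0.0023, 1 Schwann and 1 neuronal member were at least 2-fold higher, and 562 of all genes were higher. *Ntrk2* was at 0.28 under both. With 100 required on both arrays, 1 Schwann and 1 neuronal member were at least 2-fold higher, and 1 neuronal member and 1 other nerve gene were lower. With 200 on at least 1 array, 1 Schwann and 1 neuronal member were higher. With 50 on at least 1 array, 5 of 14 neuronal members were higher and 2 lower, beside 1128 and 737 of 13692 over all genes. This limit also counts neuronal members under 100 on both arrays, whose direction is not read above. Without a filter 5 of 16 neuronal members were higher and 9 of 111 other nerve genes lower. Over all 18193 genes the counts were then 2048 higher and 1535 lower. With signals under 100 set to 100, 1 Schwann and 1 neuronal member were higher. With 32 added to each signal, 1 Schwann and 1 neuronal member were higher, 0 Schwann members were lower, and 7 other nerve genes were higher. At 3-fold, 0 Schwann members were higher and 0 lower, 1 neuronal member was higher and 1 lower, 5 other nerve genes were higher, and over all genes 316 were higher and 211 lower. Without _x_at, _s_at and _a_at probe sets 1 neuronal member was lower, and *Dbh* was at 0.22. *Mbp*, *Sox10*, *Cnp*, *Ncam1*, *Prph* and *Bdnf* then had no probe set past the limit, which left 7 Schwann, 9 neuronal and 3 neurotrophin members. Except where a stricter or looser limit sets which genes are counted, the cause was not tested. No paired analysis was possible because each genotype had 1 array. The limit of 100 left 7 of 32 members without a reading.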

Other observations

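Receptors and guidance molecules that nerve fibers and their targets use were described without explanation. Of 19 receptors for autonomic and sensory transmitters with a probe set, 14 were under 100 on both arrays, among them both *Vip* receptors (*Vipr1* and *Vipr2*), *Npy1r* and *Tacr1*. Of the 5 that passed, 0 were higher by 2-fold or more on the *Fbln5-/-* array and 2 were lower by as much, beside shares of 7.21% and 4.77% over all genes measured. *Ramp3*, an accessory protein of the receptors for adrenomedullin and calcitonin peptides, had signals of 971 on the *Fbln5-/-* array and 5466 on the WT array (5.63-fold lower, 1 probe set). Its relatives *Ramp2* (3018 and 5014, 1.66-fold lower) and *Ramp1* (377 and 249, 1.51-fold higher) and their partner *Calcrl* (489 and 326, 1.50-fold higher) stayed within 2-fold. *Npy2r*, a receptor for *Npy*, had signals of 81.3 and 312 (at least 3.12-fold lower). *Ramp1*, *Calcrl* and the guidance genes below other than *Ntn4* and *Sort1* were named after their values were seen.

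Of 22 other growth factor and axon guidance genes with a probe set, 17 passed the limit, 2 were higher by 2-fold or more on the *Fbln5-/-* array and 0 were lower by as much, near the shares of 7.21% and 4.77% over all genes measured. Their median log2 ratio was 0.47, against 0.16 for all genes measured. *Ntn4*, a netrin of basement membranes, had signals of 569 and 243 (2.34-fold higher), and *Sort1*, which carries neurotrophin precursors, was between 1.29-fold and 1.70-fold higher at 3 probe sets. *Nrp2*, a semaphorin receptor, was between 1.55-fold and 1.87-fold higher at 3 probe sets. *Sema3f*, a repellent that binds *Nrp2*, was 5.91-fold and 5.69-fold lower at 2 probe sets (151 and 896, 242 and 1379) and 1.13-fold higher at another of the _x_at type (883 and 783). *Nrp1* was likewise split, at 2.22-fold and 2.72-fold lower at 2 probe sets and 1.07-fold higher at its brightest.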
